A study of Mus musculus with 18 samples.

Results

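Polycomb promoters high in H3K27me3 were examined in E14 cells, an established line of mouse embryonic stem cells. The cultures were in 2i/LIF, a medium that keeps such cells in a naive pluripotent state. A promoter was taken as the 1 kb window that holds the transcription start site (TSS) of a protein-coding gene plus 1 window on each side, 3 kb in all. The members were selected on untreated ChIP-seq signal: a mean of 2.0 RPM (reads scaled to library size) per window or more of H3K27me3, and under 2.0 RPM of H3K27me1, in both libraries of each mark. Of 16457 promoters on autosomes with a TSS in the RefSeq promoter table (GRCm38.p6), 2578 met the rule, or 15.7%. Because the rule used untreated H3K27me3 and H3K27me1, the levels of these marks at the members are given as a description and without a test.

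The untreated cells gave 2 libraries for each of H3K27me1, H3K27me2, H3K27me3, H3K36me2 and H3K36me3. For the quantitative libraries, E14 cells were kept for 7 days in 10 µM EPZ-6438, a small molecule that blocks EZH2, or in the same volume of its solvent DMSO, and sonicated Drosophila S2 chromatin was added as a spike-in before precipitation. H3K27me3 and H3K36me2 were measured there, with 2 libraries per mark and treatment. All groups are 1 cell line with no genetic change given, and the labels do not say whether replicates came from separate cultures, so the p-values measure the spread between these libraries. Library sizes ranged from 22.6 to 66.4 M (mega) window reads on the autosomes in untreated cells. They were 21.3 and 27.5 M for H3K27me3 after DMSO, 0.976 and 1.75 M for H3K27me3 after EPZ-6438, and 49.7 to 110 M for H3K36me2 in the quantitative libraries. Single promoters therefore rest on few H3K27me3 reads after the inhibitor, with a median of 5 and 10 reads per member in the 2 libraries.

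H3K27me3 is placed by Polycomb repressive complex 2 (PRC2), whose catalytic subunit is EZH2. The mark is known for covering promoters of developmental regulators that are silent in embryonic stem cells, and PRC2 is known to be recruited at CpG islands, stretches of DNA rich in the dinucleotide CG. H3K36me2 and H3K36me3, placed by other enzymes, are known to hinder PRC2 on the same histone tail, and H3K36me3 marks the bodies of transcribed genes. The promoters of Pou5f1, Sox2, Nanog, Klf4, Zfp42 and Tfcp2l1, genes of the pluripotency network, carried a mean of 0.0131 to 0.143 RPM of H3K27me3 in untreated cells. This does not check the cell type, since the median non-member promoter had 0.171 and 0.173 RPM in the 2 libraries. Of these genes, Tfcp2l1 had 4.15 RPM of H3K36me3 over its body, Nanog 4.09, Zfp42 3.27 and Klf4 2.54. The median over non-member genes was 1.43 and 1.38 RPM. Pou5f1 and Sox2 had no body value. Esrrb, another pluripotency factor, was the exception: its most upstream TSS was a member at 2.85 and 2.86 RPM of H3K27me3, while its body carried 2.39 RPM of H3K36me3.

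The promoters differed widely in their CG content, which is shown here for 7 members: 3 regulators that kept the most H3K27me3 reads or were among the highest after EPZ-6438 (Nkx1-1, Skor1, Olig2), 2 regulators with a CG-rich promoter that kept fewer than those 3 (Neurog1, Hoxd13), and 2 CG-poor members with high H3K27me3 (Lrg1, Bhlha9). Neurog1 still kept 37 and 113 reads and Hoxd13 10 and 37 in the 2 inhibitor libraries, above the medians of 5 and 10 per member. Lrg1 and Bhlha9 had the highest untreated H3K27me3 among members with an observed over expected CG ratio under 0.3 whose TSS is the 5′ end of the gene. Each line gives the 250 bases upstream of the TSS from RefSeq (GRCm38.p6), 5′ to 3′ on the strand of the gene, with every CG in capitals.
Nkx1-1: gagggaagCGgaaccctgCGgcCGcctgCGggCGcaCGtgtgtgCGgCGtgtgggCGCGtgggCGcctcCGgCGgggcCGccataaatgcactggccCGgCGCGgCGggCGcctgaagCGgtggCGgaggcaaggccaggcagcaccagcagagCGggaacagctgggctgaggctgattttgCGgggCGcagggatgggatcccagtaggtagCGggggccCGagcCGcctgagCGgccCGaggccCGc
Skor1: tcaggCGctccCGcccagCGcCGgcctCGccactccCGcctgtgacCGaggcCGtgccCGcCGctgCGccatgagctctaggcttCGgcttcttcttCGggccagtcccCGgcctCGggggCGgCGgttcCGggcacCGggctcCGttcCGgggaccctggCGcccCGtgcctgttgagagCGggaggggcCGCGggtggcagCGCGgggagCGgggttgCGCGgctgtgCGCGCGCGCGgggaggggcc
Olig2: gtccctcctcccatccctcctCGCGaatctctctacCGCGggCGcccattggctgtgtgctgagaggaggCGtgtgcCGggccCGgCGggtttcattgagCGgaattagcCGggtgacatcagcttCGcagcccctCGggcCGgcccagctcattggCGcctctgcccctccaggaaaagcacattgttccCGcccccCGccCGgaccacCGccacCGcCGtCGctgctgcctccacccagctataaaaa
Neurog1: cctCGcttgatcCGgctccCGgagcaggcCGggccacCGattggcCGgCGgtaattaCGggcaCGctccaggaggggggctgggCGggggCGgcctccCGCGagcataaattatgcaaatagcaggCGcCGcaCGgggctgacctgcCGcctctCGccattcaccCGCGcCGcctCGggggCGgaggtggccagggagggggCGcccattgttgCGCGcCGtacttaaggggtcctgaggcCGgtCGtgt
Hoxd13: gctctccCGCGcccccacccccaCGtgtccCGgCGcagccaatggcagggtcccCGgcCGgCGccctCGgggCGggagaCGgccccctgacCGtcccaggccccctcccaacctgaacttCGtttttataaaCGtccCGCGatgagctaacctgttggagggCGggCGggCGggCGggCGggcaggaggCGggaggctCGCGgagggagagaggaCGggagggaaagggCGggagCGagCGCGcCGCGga
Lrg1: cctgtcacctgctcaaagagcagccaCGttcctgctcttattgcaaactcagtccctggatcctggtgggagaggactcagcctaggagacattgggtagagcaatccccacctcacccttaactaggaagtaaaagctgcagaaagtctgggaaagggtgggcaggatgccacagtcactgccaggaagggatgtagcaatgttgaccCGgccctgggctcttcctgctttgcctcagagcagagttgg
Bhlha9: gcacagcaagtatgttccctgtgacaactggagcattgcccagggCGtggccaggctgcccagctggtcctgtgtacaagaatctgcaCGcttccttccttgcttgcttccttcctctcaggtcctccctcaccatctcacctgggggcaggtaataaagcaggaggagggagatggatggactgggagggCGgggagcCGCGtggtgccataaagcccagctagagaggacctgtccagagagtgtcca
The 3 promoters of Nkx1-1 (chr5:33434091-33434340, minus strand), Skor1 (chr9:63148962-63149211, minus strand) and Olig2 (chr16:91225300-91225549, plus strand) held 30, 36 and 22 CG dinucleotides in these 250 bases. Neurog1 (chr13:56252181-56252430, minus strand) held 29 and Hoxd13 (chr2:74667975-74668224, plus strand) held 31. Lrg1 (chr17:56121947-56122196, minus strand) held 2 and Bhlha9 (chr11:76672220-76672469, plus strand) held 5. Nkx1-1 encodes a homeodomain protein, Skor1 a neuronal SKI-family corepressor, Olig2 and Neurog1 bHLH factors of oligodendrocyte and neuron formation, and Hoxd13 a posterior HOX protein. Lrg1 encodes a secreted glycoprotein and Bhlha9 a bHLH factor of limb development.

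Over the 300 bases from 250 before to 50 after the TSS, members were richer in G and C than other promoters, but not in CG relative to base content. Their median GC content was 61.3%, against 55.7% at the 13879 other promoters. The observed over expected CG ratio (CG count times 300, divided by the product of the C and G counts) had a median of 0.598 at members and 0.597 at the others. The spread differed: a ratio from 0.3 to under 0.6 was found at 29.4% of members and 17.3% of other promoters, and a ratio under 0.2 at 10.9% and 24.1%. The share of promoters that were members was 7.79% at a ratio under 0.2, peaked at 24.7% from 0.4 to under 0.6, and was 9.03% at a ratio of 1.0 or more. The letters TATAAA, searched on both strands, were in 10.0% of member windows and 13.5% of all windows of the same length. CCAAT, searched likewise, was in 31.6% and 39.1%.

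Within the members, the CG ratio followed the amount of H3K27me3. Members were split into 4 quartile classes by their mean untreated H3K27me3, with bounds of 2.02 to 2.76 RPM in the lowest class and 4.77 to 9.90 RPM in the highest. The median CG ratio was 0.423, 0.545, 0.623 and 0.725 from the lowest class to the highest, and the median GC content went from 57.0% to 65.7%. As a description over the 2578 members, the Spearman correlation of untreated H3K27me3 with the CG ratio was 0.305. The CG ratio covers 300 bases within the 3 kb over which H3K27me3 was read. GC content can also affect ChIP-seq coverage, which was not tested.

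The members with the most H3K27me3 were Nkx1-1, Cdh22, Gp1bb, Wnt2b, H2-Q7, Slc18a3, Ankrd63, Tesc, Hmx1 and Ihh. Nkx1-1 stood at 10.2 and 9.58 RPM in the 2 untreated libraries, and Cdh22, a cadherin gene, at 9.92 and 9.12 RPM. Wnt2b, a Wnt ligand, stood at 10.2 and 8.32 RPM, and Ihh, the Indian hedgehog ligand, at 9.19 and 8.39 RPM. Slc18a3, the vesicular acetylcholine transporter, had 9.49 and 8.56 RPM. The libraries gave nearly the same order of members (Spearman 0.919). At the other end, the values chosen by the rule ended without a gap. Bpifb3 (2.17 and 2.01 RPM), Lgals2 (2.25 and 2.01 RPM) and Ndn (2.09 and 2.01 RPM) were just inside. Hhipl2, Rabl6 and Tac2 were just outside, each at 1.997 RPM in replicate 1. The H3K27me1 limit removed no promoter. The highest H3K27me1 inside was at Etnk2, with 1.67 and 1.84 RPM.

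The DMSO libraries, which the rule did not use, gave the same picture. With the DMSO libraries scaled to the untreated genome mean, 2481 members (96.2%) had 2.0 RPM or more in both, against 526 other promoters (3.79%). The authors' H3K27me3 peaks, listed as replicated between the untreated libraries, come from the libraries that the rule used and are given as a description. They covered the TSS of 2566 members (99.5%) and of 2633 of the 13879 other promoters, and at members the median length of those peaks was 28 kb (quartiles 14 and 56 kb). Atp2b2, a calcium pump gene, lay in the longest, of 524 kb. Members were on all 18 autosomes used here (chromosomes 1 to 17 and 19; the remaining autosome was not used here), from 50 of 568 promoters on chromosome 16 (8.80%) to 119 of 422 on chromosome 15 (28.2%). Another member TSS lay within 50 kb of 29.2% of members, and 106 members shared at least 1 window with another member, so these are not independent regions.

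Most promoters of the developmental regulators looked up were members, by lists of gene symbols that were chosen with earlier results of these data known. Of 336 promoters in 14 lists of transcription factors, signalling genes and potassium channels, 247 were members, against 15.7% of all promoters. These 247 are a minority of the 2578 members. Among transcription factors, 21 of 22 Hox promoters (all but Hoxc4), 71 of 80 other homeobox promoters, 7 of 7 Pax, 3 of 3 GATA, 8 of 10 T-box, 23 of 31 lineage bHLH, 16 of 26 forkhead and 6 of 13 Sox promoters were members. These are not whole families, since genes without a TSS entry were not scored. The gene table held 39 Hox, 111 other homeobox, 9 Pax, 5 GATA and 41 forkhead genes. Homeobox promoters that were not members included Meis1, Meis2 and Pou4f1. The Sox promoters outside the rule were Sox2, the pluripotency factor, and also Sox1, Sox5, Sox12, Sox13, Sox15 and Sox21. Among signalling genes, 20 of 26 Wnt ligands, receptors and antagonists, 9 of 15 FGF ligands, 10 of 21 BMP and TGF-beta genes, 2 of 6 hedgehog genes and 11 of 20 Eph receptors and ephrins were members. Those outside included Nodal and Fgf4, both active in embryonic stem cells, but also Fgf7, Fgf10, Bmp5 and Bmp10. Expression was not measured here. Potassium channels, which set the excitability of nerve and muscle cells, had 40 of 56.

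None of 57 cytosolic ribosomal protein promoters met the rule, against 15.7% of all promoters. The pluripotency list had 1 of 9 (11.1%, Esrrb), which is near that share. Of 24 promoters of PRC1 and PRC2 subunits, 3 did (12.5%, also near it), with the PRC2-associated factor Phf19 highest at 5.22 and 5.39 RPM. Olfactory receptors, the odorant receptors of the nose, had 18 of 934, with Olfr283 highest at 4.56 and 3.93 RPM. Within each list the highest members were Hoxd12, Nkx1-1, Foxe3, Sox14, Pax6, Gata5, Tbx1, Twist2, Wnt2b, Bmp6, Fgf9, Ihh, Epha8 and Kcnc1. Of the germ layer genes looked up by name, Foxa2 (4.14 and 5.03 RPM), Pax6 (6.31 and 7.77), Neurog1 (7.29 and 7.92), Nkx2-2 (5.26 and 5.23), Wnt1 (7.37 and 6.80), Bmp4 (2.43 and 2.54) and Fgf5 (3.19 and 3.25) were members. Cdkn2a, the tumour suppressor locus, was not, at 0.220 RPM. Gata4, Gata6, Sox17 and Tbxt were not used here.

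**Figure D1:**
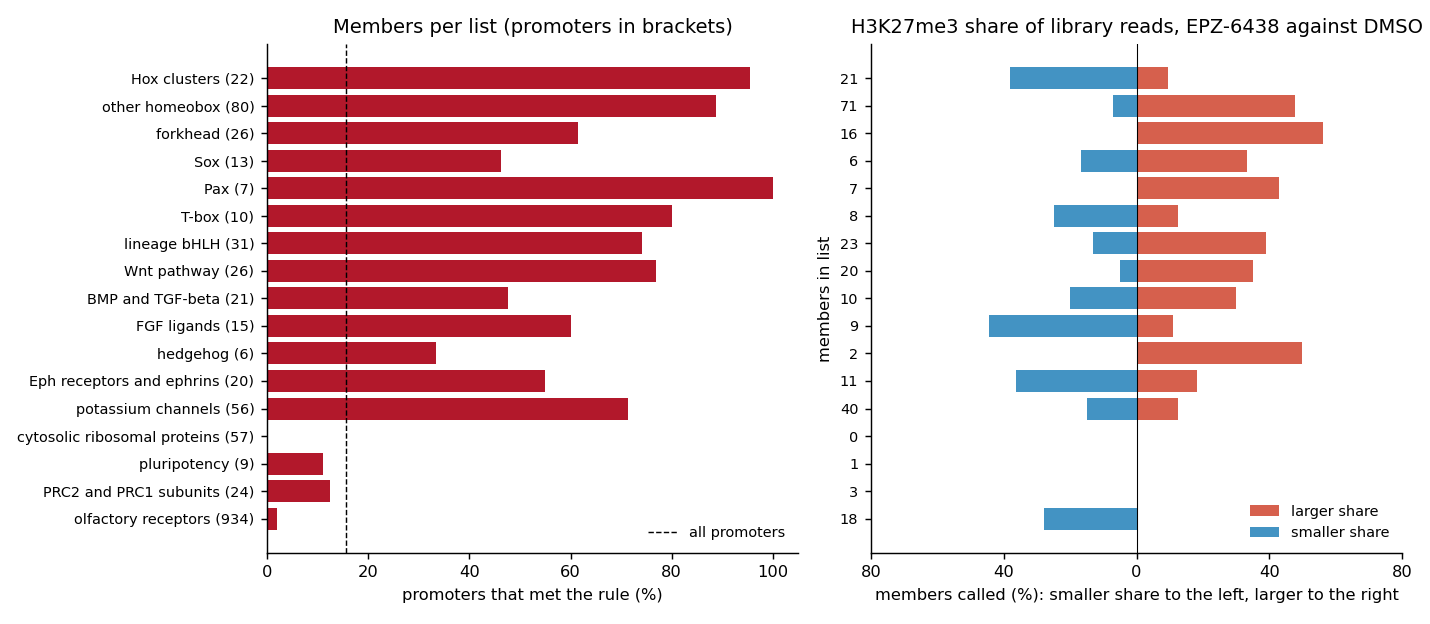
Left, percent of promoters in each gene list that met the rule (number of promoters in brackets; dashed line, all promoters at 15.7%). Right, percent of each list's members whose share of H3K27me3 library reads was called larger or smaller after EPZ-6438 (limma-voom with library totals, adjusted p under 0.05; numbers of members at the axis). Over all members 11.3% are larger and 22.4% smaller, and in the highest class of untreated H3K27me3 37.1% and 10.2%. Other homeobox members have 34 larger and 5 smaller of 71, and differences between lists were not tested.

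Of the marks that the rule did not use, H3K27me2, the dimethyl form also made by PRC2, was near the level of other promoters, with a ratio of 0.954 ± 0.020 (SD, n = 2 libraries). H3K36me2 was higher at members, with a ratio to other promoters of 1.32 ± 0.037. This is not particular to members, since promoters just under the rule, with 1.0 to under 2.0 RPM of H3K27me3, had a ratio of 1.44 ± 0.044. H3K36me3 in the 3 kb window had a ratio of 1.16 ± 0.085. The H3K36me3 ratio turned to 0.953 over 5 windows and to 0.951 against other promoters with a CG ratio of 0.6 or more, so no direction is drawn from it. Over gene bodies H3K36me3 was lower at members in both libraries: over 2142 members with a body of at least 3 windows, mean H3K36me3 was 0.426 and 0.433 times that of 10754 other genes in the 2 libraries. H3K36me2 over the same bodies was 1.40 and 1.46 times that of the other genes. The authors' H3K36me2 peaks covered 65.6% of member TSSs and 49.9% of other TSSs, and their H3K27me2 peaks covered 28.1% and 32.5%.

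**Figure D2:**
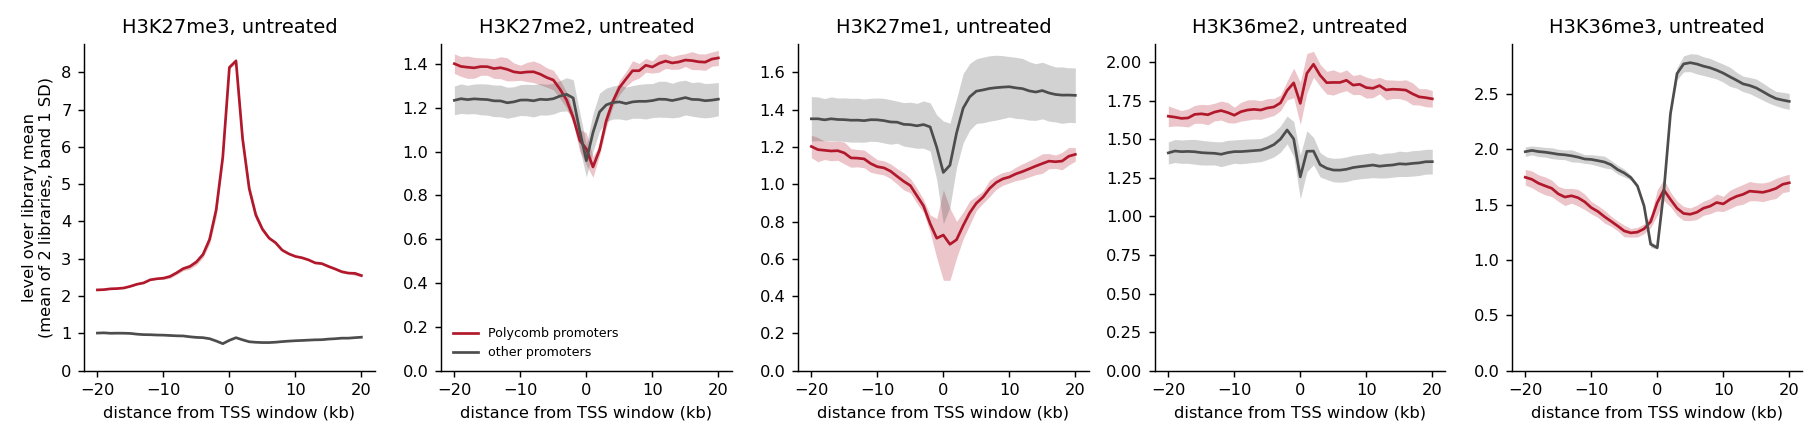
Untreated level of 5 marks, over the library mean, against distance from the TSS window in kb, along the gene (mean of 2 libraries, band 1 SD). Members peak in H3K27me3 at 8.13 and 8.30 times the library mean at the TSS window and 1 kb downstream, and lack the rise of H3K36me3 that other promoters show downstream (1.41 against 2.78 at 5 kb).

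With distance from the TSS, H3K27me3 at members fell away within a few kb but stayed above the genome mean. Its level was 8.13 times the library mean at the TSS window, 2.92 at 5 kb upstream and 2.55 at 20 kb downstream. H3K27me2 was lowest near the TSS, at 0.929 times the library mean 1 kb downstream and 1.43 at 20 kb. Other promoters also dipped, to 0.958 at the TSS window against 1.24 at 20 kb. Among members, H3K27me2 over the library mean was 1.33, 1.12, 0.908 and 0.625 from the lowest to the highest H3K27me3 class, and the Spearman correlation over members was -0.543. H3K36me2 went from 2.05 in the lowest class to 1.58 in the highest. It was also 2.28 at members with a CG ratio under 0.3 and 1.59 at those of 0.6 or more. These are levels in the same 3 kb windows from different libraries, given as a description.

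A few members carried other marks at high levels. Etnk2, an ethanolamine kinase gene, had 2.59 and 2.21 RPM of H3K27me2, and Glp1r, the GLP-1 receptor gene, had 1.82 and 1.76 RPM. Gm4791 was the third in H3K27me2. Glp1r was also highest in H3K36me2, at 3.57 and 2.98 RPM, followed by the divergent pair Dcst1 and Dcst2, which share their 3 windows, at 2.96 and 2.77 RPM. For H3K36me3 the highest promoters were Insl3 (3.69 and 3.98 RPM), an insulin-like hormone gene, Lsmem2 (3.13 and 4.37) and Grin2c (3.51 and 3.91), an NMDA receptor subunit gene. Some members high in H3K27me3 held little H3K27me2, with 0.117 and 0.0576 RPM at Nkx1-1 and 0.0630 and 0.0504 RPM at Grb10.

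The quantitative libraries asked how far H3K27me3 fell when EZH2 was inhibited. On the spike-in scale, each of the 2578 members was lower after EPZ-6438 (limma with Benjamini-Hochberg adjustment over all 14828 promoters tested, largest adjusted p among members 2.40e-05). The members did not stand out by this count, since 99.6% of all promoters tested were called lower. Mean scaled reads per window over members were 495 and 357 in the DMSO libraries and 0.902 and 0.861 after EPZ-6438, a 483-fold difference of means. At other promoters the fold was 350, from a mean of 45.2 to 0.129 scaled reads. The 2 treatments did not overlap, and the exact two-sided permutation test over libraries gave p = 0.333, the lowest value possible for 2 libraries a group. How large the fold is depends on the scaling factors of the authors. By library totals instead, limma called 0 members, with 808 of 2578 members and 5455 of all 14828 promoters at an unadjusted p under 0.05. With each library centred on its median promoter, 5574 promoters were called higher and 6199 lower, and 2576 of the members were called lower. That fit adds 1 to each value, while the medians after EPZ-6438 were 0.372 scaled reads at members and 0.114 at other promoters. The centred change therefore mostly follows the DMSO level, which is high at members, and no direction is drawn from it.

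The call does not separate the lists, since every member of each list was called lower, as were 99.6% of all promoters. The median log2 change (of mean scaled reads plus 1) was -7.91 over members and -4.53 over the other promoters tested, a scale that understates the change of low promoters. On this scale the largest falls were at Chd5 (log2 -9.13, SE 0.287), a chromatin remodeller gene, Sema5b (-9.04), Gm33099, Hoxd9 (-8.98) and Pitpnm3 (-8.96). Chd5 went from 438 and 550 reads in the DMSO libraries to 4 and 9 reads, and Hoxd9 from 381 and 421 reads to 0 and 12. The order depends on the added 1: with a pseudocount of 0.1 Hoxd9 was at -11.39 and Chd5 at -10.80. The ratio of means, which adds nothing, was 1880 at Olfr283 and 1661 at Glp1r, and rests on few reads left. Both ratios were above 1209 at Pitpnm3 and 1158 at Sema5b but below those at Hoxd9 and Chd5. The smallest falls were at Nkx1-1 (-5.50, SE 0.311), Grb10 (-5.72), Uncx (-5.85), Skor1 (-5.94) and Tmem132e (-6.05). These 10 were picked among members called by limma, so passing was a condition. Their adjusted p ran from 1.58e-06 to 5.52e-06.

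What H3K27me3 remained was spread unevenly, and this does not depend on the scaling factors. Relative to the library mean, members in the highest class of untreated H3K27me3 stood at 15.7 and 15.3 after DMSO and at 23.9 and 33.9 after EPZ-6438. The lowest class went the other way, from 5.53 and 5.42 to 2.91 and 2.79. In none of the 4 classes did the treatments overlap. The ratio of the highest to the lowest class was 2.85 and 2.83 after DMSO and 8.22 and 12.1 after EPZ-6438, a log2 difference of 1.81 (exact permutation p = 0.333, the smallest possible). This comparison of classes was added after the data were seen, and the difference was 0.77 among members with a CG ratio under 0.3. On the spike-in scale the same classes were 1026-, 936-, 735- and 296-fold lower from the lowest to the highest. Over all members together the level relative to other promoters was 9.47 and 9.36 after DMSO and 6.14 and 7.73 after EPZ-6438, a log2 difference of -0.45 (exact permutation p = 0.333). This difference was 0.06 with only members of 4.0 RPM or more, -0.98 against other promoters with a CG ratio of 0.6 or more, and -2.20 by medians.

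**Figure D3:**
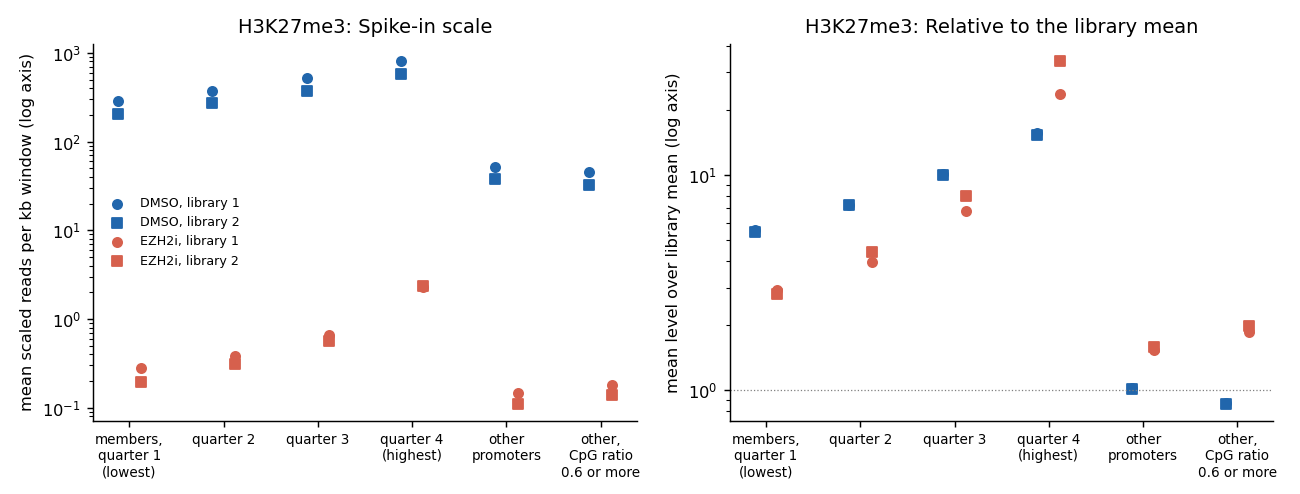
H3K27me3 at members by class of untreated H3K27me3 and at other promoters, one point per library (both axes log). On the spike-in scale all classes are far lower after EPZ-6438 (EZH2i); relative to the library mean the highest class is above DMSO (23.9 and 33.9 against 15.7 and 15.3) and the other 3 classes are below.

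The reads that remained were concentrated on few promoters. The 258 members with the most reads left held 52.3% of the member reads after EPZ-6438, while the 258 with the most DMSO reads held 19.9% of those. When the 258 were picked in one inhibitor library and counted in the other, they held 47.0% and 51.9%. The lists of 258 from the 2 libraries shared 212 promoters. The 258 by summed reads had a median CG ratio of 0.755 against 0.569 at the other members, a median untreated H3K27me3 of 6.40 against 3.39 RPM, and H3K27me3 peaks of 49 against 26.5 kb. In H3K27me2 they were lower in untreated cells, with medians of 0.199 and 0.515 RPM. Genes of the 8 transcription factor lists made up 22.5% of them and 4.18% of the other members. At the other end, 89 and 21 members had no read in the first and second inhibitor library, and 2 had none in both.

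Nkx1-1 kept the most. It had 769 and 1036 reads in the DMSO libraries and 293 and 1032 reads after EPZ-6438, although those libraries were far smaller. Relative to the library mean this was 29.7 and 30.9 after DMSO and 247 and 485 after EPZ-6438. Uncx, a homeobox gene of vertebra formation, went from 23.6 and 29.2 to 147 and 364. Grb10, an imprinted growth regulator, went from 20.7 and 20.8 to 157 and 252, and Skor1 from 23.3 and 21.3 to 149 and 223. Tmem132e stood at 154 and 206 after EPZ-6438, Olig2 at 125 and 186, and Ihh at 112 and 173. In all 7 the lowest value after EPZ-6438 was above the highest after DMSO. Nkx1-1, Grb10, Uncx, Skor1 and Tmem132e were named as the smallest falls, and Olig2 was shown for its reads left. The pattern therefore follows in part from the choice, and the share of all members or promoters that have it was not counted. By the test of shares given below, a different measure, 11.3% of members and 32.9% of all promoters had a larger share. All 7 have a CG ratio from 0.774 to 0.975.

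**Figure D4:**
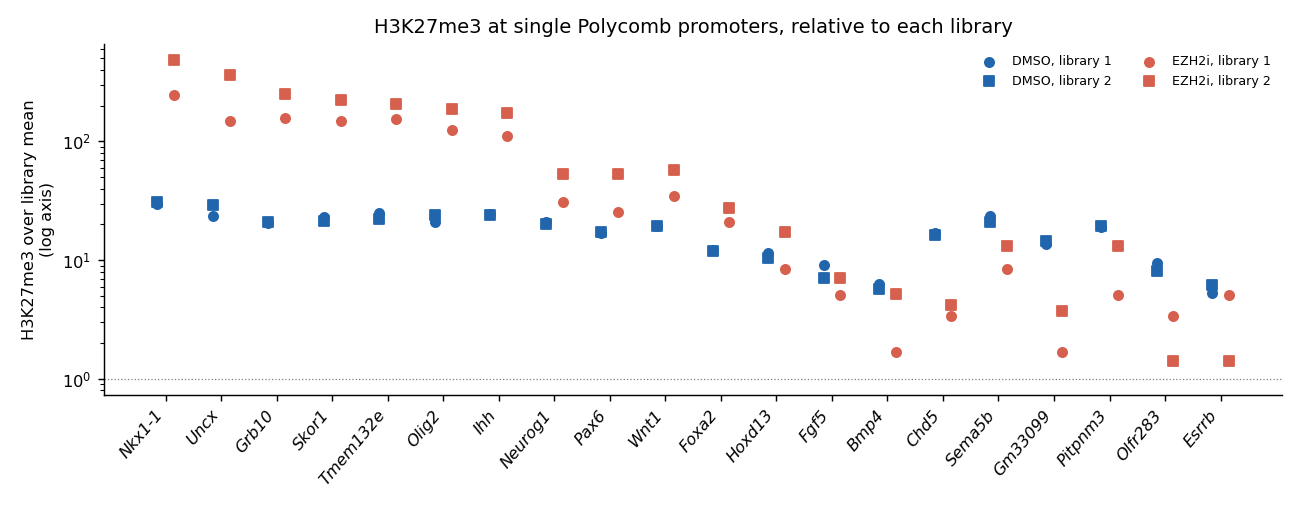
H3K27me3 level over the library mean at 20 named members, one point per library (log axis). From Nkx1-1 to Foxa2 both EPZ-6438 (EZH2i) points lie above both DMSO points; at Chd5, Sema5b, Gm33099, Pitpnm3 and Olfr283 both lie below. Some of these genes were named for small or large falls, so the points do not show how common either pattern is.

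A test of each promoter's share of the library's H3K27me3 reads, added after the data were seen (limma-voom on recovered reads with library totals), called 291 members with a larger share and 578 with a smaller share after EPZ-6438. The corresponding calls over all promoters were 32.9% larger and 6.18% smaller, against 11.3% and 22.4% of members. These rates are not on equal terms. Other promoters had a median of 12 and 15 reads after DMSO and 1 and 3 after EPZ-6438. Members had 224 and 283 after DMSO and 5 and 10 after EPZ-6438. With so few reads a smaller share can hardly be called, so no difference between members and background is drawn from these rates. The 291 had a median CG ratio of 0.744 and untreated H3K27me3 of 6.06 RPM. The 578 had 0.542 and 3.39 RPM. By class of untreated H3K27me3, from the lowest, 2, 13, 37 and 239 members had a larger share and 144, 186, 182 and 66 a smaller one. The log2 change in share was 3.59 at Nkx1-1 (SE 0.220, adjusted p = 5.60e-10) and 2.81 at Olig2 (SE 0.213, adjusted p = 5.52e-09). These calls rest on limma-voom: plain limma with the same library totals called 0 promoters, with 5455 at an unadjusted p under 0.05, and gave Nkx1-1 an adjusted p of 0.0517. A missed threshold with 2 libraries a group and few inhibitor reads does not show that shares stayed the same.

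The counts for the lists stand beside 11.3% larger and 22.4% smaller over all members, and 32.9% and 6.18% over all promoters. As given above, the rates over all promoters are not on equal terms with members. In the highest class of untreated H3K27me3, from 4.77 RPM, 37.1% were larger and 10.2% smaller. Other homeobox and forkhead members had median untreated H3K27me3 of 5.28 and 5.30 RPM, within the range of that class. Of 71 other homeobox members, 34 had a larger share and 5 a smaller one, and forkhead had 9 and 0 of 16. Lineage bHLH members had 9 and 3 of 23, Wnt pathway members 7 and 1 of 20 and Pax members 3 and 0 of 7, with larger shares at about the rate of all promoters. Potassium channels had 5 and 6 of 40, Eph receptors and ephrins 2 and 4 of 11 and T-box members 1 and 2 of 8. Of 21 Hox members, 2 had a larger share and 8 a smaller one, with Hoxd9 (log2 -2.94, adjusted p = 0.00290) and Hoxd12 (-0.96, adjusted p = 0.0399) among the latter. FGF members had 1 larger and 4 smaller of 9. Olfactory receptors had 0 and 5 of 18, or 27.8% smaller, near the share over all members. Among the named genes, Pax6 (log2 1.20, adjusted p = 0.00243), Neurog1 (1.06, adjusted p = 0.00352), Nkx2-2 (1.55), Wnt1 (1.27) and Foxa2 (1.06) had larger shares. Hoxd13 (0.29, adjusted p = 0.556), Fgf5 (-0.29, adjusted p = 0.620) and Bmp4 (-0.71, adjusted p = 0.301) were not called. The CG-poor members Lrg1 and Bhlha9, with -0.19 and 0.12, were not called either. Whether lists differ from each other was not tested.

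Other promoters also shifted relative to the genome. Other promoters with a CG ratio of 0.6 or more went from 0.873 and 0.867 times the library mean after DMSO to 1.86 and 1.99 after EPZ-6438, and those under 0.3 stayed at 1.07 and 1.08 against 1.05 and 1.00. The inhibitor libraries held 0.976 and 1.75 M window reads. The part of this shift and of the lower depth in the relative values at members was not tested. At the TSS window the members stood at 12.4 ± 2.28 times the library mean after EPZ-6438 and 11.1 ± 0.33 after DMSO (SD, n = 2). Over the 3 windows they were at 9.41 and 12.3 after EPZ-6438 and 9.66 and 9.49 after DMSO, which overlapped. The mean after EPZ-6438 is carried by the highest class. The median member, over its 3 windows, went from 8.55 ± 0.14 to 4.46 ± 0.35 times the library mean, and the other 3 classes were lower after EPZ-6438. At 20 kb on either side they stood lower after EPZ-6438, at 1.91 against 2.26 upstream and 2.03 against 2.62 downstream.

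**Figure D5:**
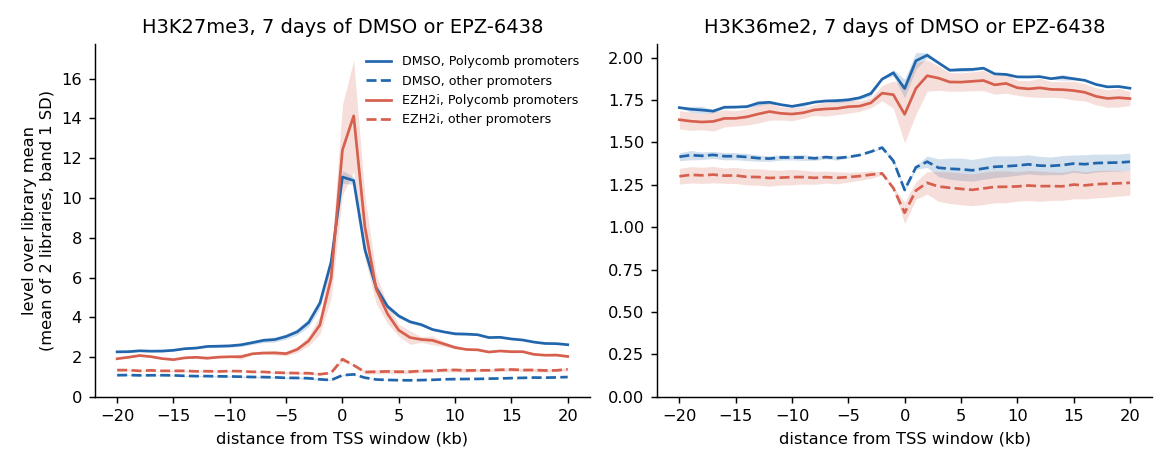
H3K27me3 (left) and H3K36me2 (right) over the library mean against distance from the TSS window in kb, along the gene (mean of 2 libraries, band 1 SD). After EPZ-6438 (EZH2i) the mean H3K27me3 of members at the TSS is 12.4 times the library mean against 11.1 after DMSO, a mean raised by the highest class. Over the 3 windows the libraries of the treatments overlap (9.41 and 12.3 against 9.66 and 9.49). The flanks at 20 kb are lower (1.91 and 2.03 against 2.26 and 2.62). H3K36me2 is above other promoters in both treatments.

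The last comparison asked whether H3K36me2 changed at these promoters once H3K27me3 was lost. No member was called in either direction by limma, none had an unadjusted p under 0.05, and limma-voom also called none, with 1 at an unadjusted p under 0.05. Other fits also called no member but gave more unadjusted p under 0.05, in opposite directions and at a lower share of members than of all 16076 promoters. With library totals these were 232 members (46 higher) of 2630 promoters, and with limma-voom and library totals 488 members (60 higher) of 3605 promoters. With median centring they were 206 members (168 higher) of 1833 promoters, and with a replicate block 207 members (172 higher) of 2035 promoters. Over all 16076 promoters tested 0.286% were called higher and 0.00622% lower. Mean scaled H3K36me2 reads over members were 638 and 434 after DMSO and 705 and 441 after EPZ-6438. The libraries of the 2 treatments overlapped (log2 difference 0.08, exact permutation p = 0.667), and between pairs of libraries the difference ran from -0.53 to 0.70, so smaller changes were not detectable with 2 libraries a group.

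Relative to other promoters, where the scaling factors cancel, H3K36me2 at members was 1.42 and 1.46 after DMSO and 1.45 and 1.53 after EPZ-6438, a log2 difference of 0.05 with a range from -0.01 to 0.11 over pairs of libraries (exact permutation p = 0.667). On the spike-in scale, where the factors do not cancel, the median log2 change by limma was 0.07 over members and 0.04 over other promoters. The median SE was 0.566. With library totals these medians were -0.12 and -0.16, so the counts above 0 and list medians that follow depend on the scaling. Of all members, 1657 of 2578 were above 0, as were 7595 of 13498 other promoters. Hox members had a median of 0.26, with 19 of 21 above 0, and olfactory receptor members a similar 0.23, with 15 of 18 above 0. Other homeobox members had a median of 0.05 and potassium channel members 0.04. None of these lists had a called member. The ratio of the highest to the lowest H3K27me3 class was 0.833 and 0.877 after DMSO and 0.770 and 0.854 after EPZ-6438, which overlapped (log2 difference -0.08, exact permutation p = 0.667).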

How the data were processed

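The data are ChIP-seq tracks of E14 cells, as given above. Reads were trimmed with Trim Galore 0.4.2 and aligned with Bowtie2 2.2.6.2, and SICER and the builds mm10 and dm3 are also named, per the submitters' processing notes. The authors deposited each track as log2 values in 1 kb windows every 500 bp, without a header. Taken as 2 to the power of the value minus 1, 100% of values were whole multiples of 1 step per library (tolerance 0.05), which gave the reads. The step scales untreated tracks to RPM. In the quantitative tracks it was read as a spike-in factor set by the authors (0.099 to 11.115), and how it was derived is not given in the sources used here. A read that spans windows counts in each. The authors' peak lists carry a deposited score, which was not used.

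Genes were matched to the RefSeq promoter table, and the most upstream TSS was used. Of 20665 protein-coding genes on the autosomes, 4208 had no entry there and were not used here. Members and gene lists were chosen with earlier results of these data known. Genes named were the 10 highest in H3K27me3, the highest per list, a set list of germ layer genes, the 5 largest and 5 smallest called changes, the 3 highest in each other mark, those nearest the thresholds and the 5 with the most reads left; Lrg1 and Bhlha9 were added for their sequence.

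limma 3.58.1 in R 4.3.3 was run on log2 of mean scaled reads per window plus 1, over promoters with 10 or more reads in the 4 libraries of a mark, with Benjamini-Hochberg adjustment and calls under 0.05. Means over members were compared with exact permutation tests over libraries. The library sizes above set the precision of single promoters.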

Additional observations from a re-analysis of the deposited data

How the results depend on the processing

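The number of members (2578) ran from 2362 over 5 windows to 3007 by the DMSO libraries under the alternatives tried; the gene table's 5′ ends, added after seeing the data, gave 2512. The count of promoters called lower in H3K27me3 (14767 of 14828 tested) was 7905 with 50 reads or more, where only 7905 were tested. It was 0 with library totals, and 0 members were called there, which with few inhibitor reads does not show that shares stayed the same. The test of shares (limma-voom with library totals, added after seeing the data) called 5797 promoters and 869 members. For H3K36me2, 47 promoters were called, and 0 with library totals, median centring, a pseudocount of 10, no filter, 50 reads or more, limma-voom or limma-voom with library totals. The count was 77 with a pseudocount of 0.1, 94 in the TSS window only, 9 over 5 windows, and 11 to 94 when 1 library was left out. No member was called in H3K36me2 under any of these. The labels give equal replicate numbers to the treatments but not a shared culture. With a replicate block 84 promoters were called for H3K36me2, members 0, and 14825 for H3K27me3.

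Scaled by library totals, the log2 difference over members turned to 0.17 for H3K27me3 and -0.12 for H3K36me2. The H3K36me2 difference over members ran from -0.26 to 0.42 when 1 library was left out. The members over other promoters in H3K27me3 (-0.45) turned to 0.064 with members of 4.0 RPM or more, and was -0.98 against CG-rich other promoters and -2.20 by medians. By library totals Nkx1-1 (3.50), Grb10 (3.25), Uncx (3.13), Skor1 (3.03) and Tmem132e (2.91) turned positive in H3K27me3, and with limma-voom and library totals they were 3.59, 3.31, 3.25, 3.09 and 2.96. The untreated ratio of H3K27me2 was 1.06 in the TSS window only, 0.928 over 5 windows and 1.03 against CG-rich other promoters. For H3K36me2 it was 1.38 in the TSS window only and 1.26 against CG-rich promoters. For H3K36me3 it was 1.31 by medians, 1.37 in the TSS window only, 0.953 over 5 windows and 0.951 against CG-rich promoters. The highest over lowest class of members in H3K27me3 (1.81) kept its direction in the 11 alternatives run, from 0.77 among members with a CG ratio under 0.3 to 2.10 without the first EPZ-6438 library. The cause of these shifts was not tested.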

Other observations

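On chromosome X, which the rule leaves out, 20 of 817 promoters passed both thresholds, or 2.45%, against 15.7% on the autosomes. Their H3K27me3 stood at 6.71 and 6.70 times the autosomal mean after DMSO and at 7.78 and 9.64 after EPZ-6438. Neither the thresholds nor these levels were adjusted for the number of X copies. Chromosome X and the autosomes may therefore not be on equal terms, which was not tested. Promoters with 1.0 to under 2.0 RPM of H3K27me3 in both untreated libraries, just under the rule, numbered 1421. They had 1.49 ± 0.026 times the H3K27me2 of non-member promoters (SD, n = 2). Relative to the library mean their H3K27me3 was 3.16 ± 0.011 after DMSO and 2.08 ± 0.062 after EPZ-6438.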
